A study of Caenorhabditis elegans with 2 samples.

Results

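The genes described here are irg-4 and 7 dod genes (dod-3, dod-17, dod-19, dod-21, dod-22, dod-23 and dod-24) of the nematode Caenorhabditis elegans, 8 of the 14777 genes measured on both arrays of the series. They were chosen by name, as probes that the platform annotation assigns to 1 gene with one of these current symbols, and the choice was made with their ratios on these arrays known. Their own ratios are therefore given as a description, without a test. RNA of glp-4 mutant worms at the L2 larval stage was compared with a reference of mixed wild-type (wt) RNA on 2-colour microarrays, with preparation 1 on one array and preparation 2 on the other. At the restrictive temperature glp-4 worms form a gonad with very few germ cells. L2 larvae, in the second of the larval stages, have a working intestine but no eggs or sperm. The sources used here do not name the glp-4 allele, the growth temperature or the stages pooled in the reference. The reference differed from the sample in genotype and may also have differed in stage, and these cannot be told apart.

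Each value is the log2 ratio of the channels that the authors deposited. The direction is not stated. It was read as likely glp-4 L2 over reference because the major sperm protein genes (30 genes, with medians of -3.97 in preparation 1 and -2.86 in preparation 2) and the yolk protein genes (-7.16 and -6.80, 3 genes) were low on both, and every sign would turn if this were wrong. Whether separate worm cultures gave the preparations is not in the labels, so the spread between arrays may be technical, and the number of arrays limits the precision. Over all genes the medians were 0.10 in preparation 1 and 0.02 in preparation 2, the median absolute difference between the arrays was 0.64, and the correlation across genes was 0.53 (genes are not independent replicates). No value of the glp-4 gene itself was used to check the labels.

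The infection response gene irg-4 is one of a group of intestinal genes that worms switch on when they feed on pathogenic bacteria, largely through the p38 MAP kinase pathway (tir-1, nsy-1, sek-1, pmk-1 and the transcription factor atf-7). The dod genes are named as downstream of daf-16, the FOXO transcription factor that insulin-like signalling through the receptor daf-2 holds out of the nucleus. Adult daf-2 mutants sorted them into classes: dod-3 belongs to the genes that are higher when daf-16 is active, and dod-17 through dod-24 to those that are lower. The products of irg-4, dod-17, dod-21, dod-22 and dod-24 carry a CUB-like domain, found in many secreted intestinal proteins of nematodes that respond to infection. The molecular roles of dod-3, dod-19 and dod-23 are left out here. No infection and no daf-2 or daf-16 mutant was part of this comparison.

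The members fell into 3 sets. Ratios of irg-4, dod-21, dod-24, dod-17 and dod-19 were well above 0 on both arrays, dod-22 was close to 0, and dod-3 and dod-23 were far below 0 on both arrays. The high set held all of the CUB-like members but dod-22, together with dod-19. The daf-2 classes did not separate the sets, since dod-23 shares the class of dod-17, dod-19, dod-21 and dod-24 and lay at the opposite end. The members' median log2 ratio was 3.46 (3.90 in preparation 1 and 2.67 in preparation 2), against 0.08 over all genes.

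Among the high members, irg-4 (sequence name F08G5.6, chromosome IV) had log2 ratios of 6.12 in preparation 1 and 4.30 in preparation 2, a mean of 5.21 ± 1.29 (SD, n = 2 here and below). It stood at rank 2 of all genes on the first array and at rank 43 on the second. The CUB-like gene dod-21 (C32H11.10, chromosome IV) had log2 ratios of 5.73 and 3.60 in preparations 1 and 2 (mean 4.67 ± 1.50). Both genes were thus far above the reference in each preparation, with the larger ratio in preparation 1. Its near neighbour dod-24 (C32H11.12, chromosome IV), also CUB-like, had log2 ratios of 4.68 and 3.14 (mean 3.91 ± 1.09).

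The CUB-like gene dod-17 (K10D11.1, chromosome IV) had nearly the same log2 ratio in both preparations, 3.88 and 3.83 (mean 3.86 ± 0.04). On a linear scale its mean was 14.5-fold above the reference, against 37.1-fold for irg-4, 25.4-fold for dod-21 and 15.0-fold for dod-24. In the order of ratios, dod-17 came after dod-24 on the mean, but in preparation 2 it stood above all members except irg-4. For dod-19 (ZK6.10, chromosome V) the log2 ratios were 3.92 and 2.20 (mean 3.06 ± 1.22), 8.36-fold on the mean. From irg-4 down to dod-19, the values of each gene on the arrays overlapped those of the next gene in the order, so the order of these 5 is not settled by 2 arrays. A ratio compares each gene with its own level in the reference and does not rank the genes by abundance.

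The CUB-like gene dod-22 (F55G11.5, chromosome IV) was the 1 member whose sign changed between arrays, with log2 ratios of 0.65 and -0.45 (mean 0.10 ± 0.78). It was also the 1 member with 2 probes. They gave 0.69 and 0.61 in preparation 1 and -0.54 and -0.37 in preparation 2. The probes of dod-22 therefore lay closer to each other within an array than the arrays lay to each other.

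At the low end, dod-3 (C24B9.9, chromosome V) had log2 ratios of -3.20 and -3.78 in preparations 1 and 2 (mean -3.49 ± 0.41). Its linear ratios were 0.109 and 0.073, which is 11.2-fold below the reference on the mean. The lowest member was dod-23 (F49E12.2, chromosome II), with log2 ratios of -4.61 and -4.92 (mean -4.76 ± 0.22), 27.2-fold below the reference. The linear ratios of dod-23 were 0.041 and 0.033. Deposited ratios come in steps of 0.001, which is fine enough to keep dod-3 and dod-23 apart on each array. Their ranges did not overlap each other or that of dod-22, and dod-22 did not overlap dod-19.

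**Figure D1:**
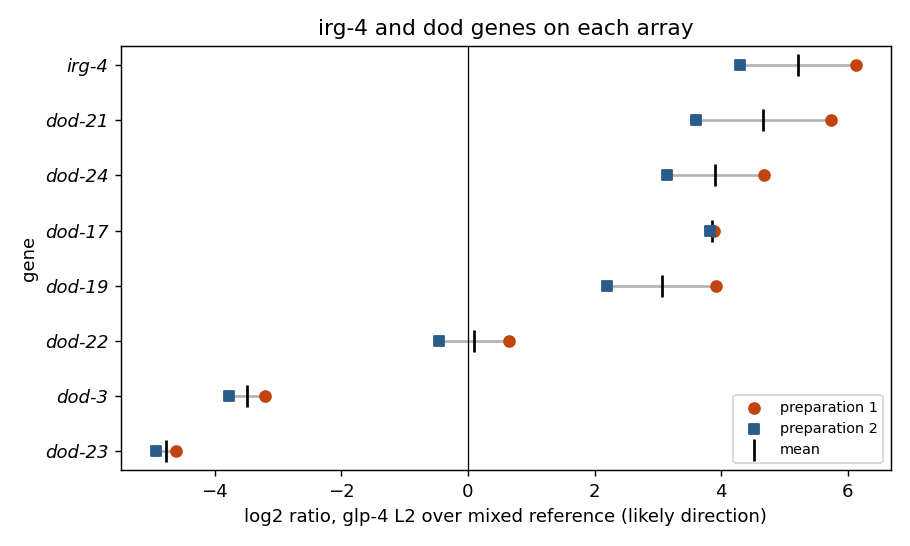
Log2 ratio (x axis, likely glp-4 L2 over mixed reference) of each gene (y axis) on the preparation 1 array (circles) and the preparation 2 array (squares), with the mean as a vertical tick. The 5 uppermost genes lie above 2 on both arrays, dod-22 lies on either side of 0, and dod-3 and dod-23 lie below -3 on both arrays.

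All 8 members had the larger log2 ratio on the preparation 1 array, the low ones included. Over all genes 49.7% had the larger ratio there. Among the 63 genes with a mean log2 ratio above 3 the share was 55.6%, and among the 171 genes with a mean below -3 it was 28.7%. The lean was not particular to the members. In lists described below it held for 11 of 12 genes around the p38 pathway, 14 of 17 intestine markers and 9 of 10 hypodermis markers. It did not hold for epidermal peptide genes (2 of 12), further irg genes (3 of 7) or germ cell markers (5 of 10). The difference between preparation 1 and preparation 2 was 2.13 log2 units for dod-21, 1.82 for irg-4, 1.72 for dod-19 and 1.54 for dod-24, against a median absolute difference of 1.50 among the 63 high genes. For these 4 genes the spread between preparations was thus about as wide as is usual for genes this far above the reference, and for dod-17 (0.05) it was much narrower.

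**Figure D2:**
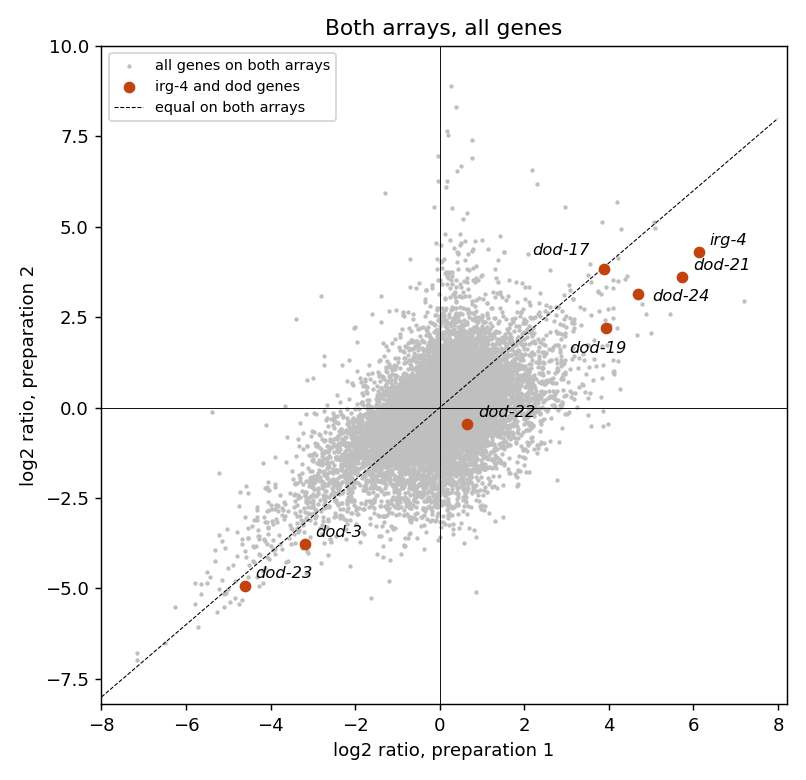
Log2 ratio of each gene on the preparation 1 array (x axis) and on the preparation 2 array (y axis), with all 14777 genes in grey and the irg-4 and dod genes labelled. All 8 labelled genes lie below the dashed line of equal ratios, with dod-17 almost on it and dod-23 and dod-3 in the lower left corner.

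In the fit across all genes (limma, ratio against 0, Benjamini-Hochberg adjusted p under 0.05), 275 genes, or 1.86%, differed from the reference. In the higher direction 0.365% of all genes passed and in the lower direction 1.5%. Of the 8 members, irg-4, dod-17, dod-21 and dod-24 passed as higher and dod-3 and dod-23 as lower. The members were chosen on this contrast, so nothing is read from that count. With limma's trend and robust options 0 genes passed as higher (238 at an unadjusted p under 0.05). The higher calls named above and below were thus all lost under these options, and dod-3 and dod-23 were the 2 members that passed. Without a test, 5 members were at least 2-fold higher on both arrays (4% of all genes) and 2 at least 2-fold lower on both (7.35% of all genes).

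Of the members, 5 lie on chromosome IV, and 4 of these share a short stretch of it. By gene order in the RefSeq table of the WBcel235 assembly, dod-21 and dod-24 are separated by 1 protein-coding gene, dod-24 and dod-22 by 6, and dod-22 and dod-17 by 2. The stretch from irg-6, another infection response gene with a CUB-like product, to dod-17 holds 21 protein-coding genes, of which 20 were measured. It was bounded after the values had been seen, so its genes were counted and not tested as a set. Of the 16 measured genes there that are not members, 2 passed as higher, 0 as lower and 14 did not pass, with a median log2 ratio of 0.87 and means from -0.96 to 4.61. Of these 16, 7 had an unadjusted p under 0.05 in limma, all higher (18.7% of all genes in either direction). Without a test, 5 of the 16 were at least 2-fold higher on both arrays (4% of all genes).

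High ratios stood in separate blocks of that stretch. The first block held cld-1, named for its CUB-like domain, and next to it dod-21 and, beyond C32H11.11, dod-24. The log2 ratios of cld-1 were 4.87 and 2.59 in preparations 1 and 2 (mean 3.73 ± 1.61, limma adjusted p = 0.0587), so it did not pass, and like those of dod-21 and dod-24 they were larger in preparation 1. C32H11.11, which lies between dod-21 and dod-24, had log2 ratios of 0.97 and 0.30 (limma adjusted p = 0.447). It was thus well below the genes on either side of it in each preparation.

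The second block held F55G11.2, mbug-1 and dod-17, which are consecutive. F55G11.2 had log2 ratios of 4.30 and 4.93 (mean 4.61 ± 0.45, limma adjusted p = 0.0231) and mbug-1 of 3.84 and 5.14 (mean 4.49 ± 0.92, limma adjusted p = 0.0257). Both rose, and both had the larger ratio in preparation 2, unlike the genes of the first block. The gene dod-22, next to F55G11.2 on the other side, was near 0. Between the blocks, F55G11.1, F55G11.10, F55G11.6, F55G11.7 and F55G11.8 had means from 0.78 to 1.89, and none passed. The gene irg-6, at the start of the stretch, had log2 ratios of -0.84 and -0.78 (limma adjusted p = 0.328). Related genes in one place can share sequence, and probe sequences were not used here, so the part that cross-hybridisation plays in these ratios was not tested.

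**Figure D3:**
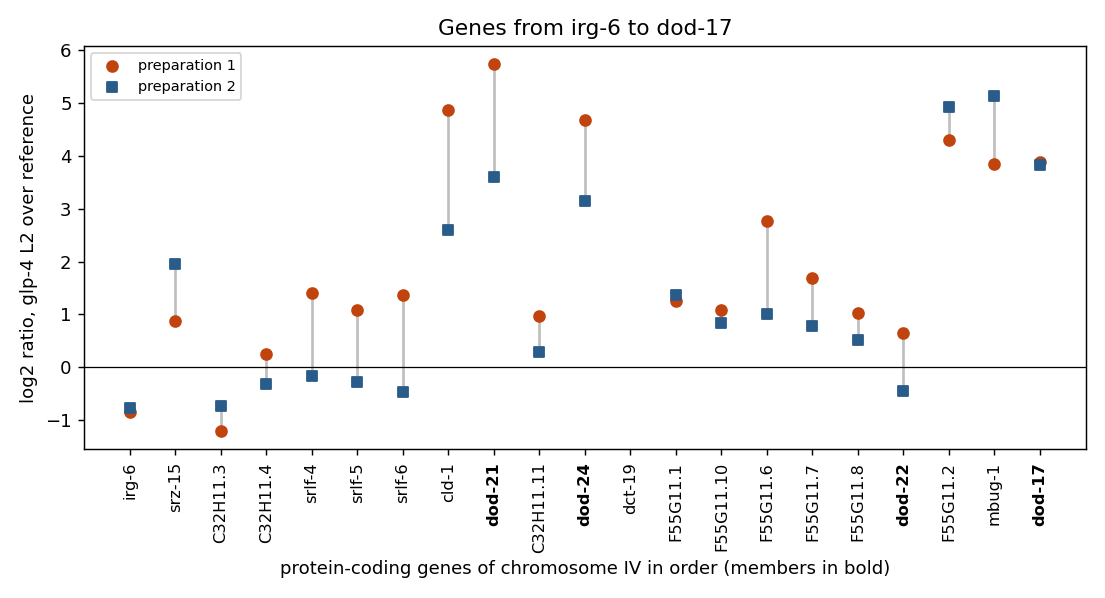
Log2 ratio (y axis, likely glp-4 L2 over mixed reference) of the 21 protein-coding genes from irg-6 to dod-17 in their order on chromosome IV (x axis, members in bold), on the preparation 1 array (circles) and the preparation 2 array (squares). Ratios above 2.5 on both arrays appear in 2 blocks, cld-1 with dod-21 and dod-24, and F55G11.2 with mbug-1 and dod-17, while dod-22 lies around 0; dct-19 had no value on both arrays.

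The other members lie apart from that stretch. On chromosome IV, irg-4 is separated from dod-21 by 100 protein-coding genes. Its measured neighbours were the C-type lectin gene clec-185 (log2 ratios 0.76 and -0.44) and the collagen gene col-130 (2.33 and 1.55, limma adjusted p = 0.100), and neither passed. On chromosome V, dod-19 is followed by irg-8 and, after 2 genes in all, by dod-20. The log2 ratios were 3.84 and 0.82 for irg-8 and 1.93 and 1.10 for dod-20, larger in preparation 1 as for dod-19, and neither gene passed (limma adjusted p = 0.200 and 0.163). On the other side of dod-19, the nuclear receptor gene nhr-252 was at 0.40 and 0.21.

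For the low members, the picture by position differed. On chromosome II, dod-23 lies beside skpo-1, which encodes a peroxidase with a ShK toxin-like domain and acts in defence against bacteria. It fell, with log2 ratios of -3.37 and -3.34 (mean -3.35 ± 0.02, limma adjusted p = 0.0306), whereas F49E12.7 on the other side of dod-23 was at 0.63 and 0.71. The gene dod-3 lies among chemoreceptor genes. Of these, str-33, str-13 and srg-56 had mean log2 ratios of 0.12, 0.70 and 0.59, so the low ratio of dod-3 was not shared by its measured neighbours. Over the 2 nearest genes on each side of all members, 22 genes that are not members were measured. Their median log2 ratio was 0.68, and 2 passed as higher (F55G11.2 and mbug-1), 1 as lower (skpo-1) and 19 did not pass.

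Other genes of the same names had means from -1.26 to 5.08 (irg) and from -0.77 to 1.52 (dod), so none was as low as dod-3 or dod-23. Of all genes, 18.7% had an unadjusted p under 0.05, the background for the counts at that threshold in these and the following lists. For the genes that passed after adjustment, the background was 1.86% of all genes, 0.365% as higher and 1.5% as lower. Of 7 further irg genes, 0 passed in limma (4 at an unadjusted p under 0.05), and their median log2 ratio was 0.76. The CUB-like infection response gene irg-5 had the largest mean among them, with log2 ratios of 7.21 and 2.95 in preparations 1 and 2 (mean 5.08 ± 3.01, limma adjusted p = 0.0782), and it passed with each array centred and after quantile normalization. The arrays differed by more for irg-5 than for any member. The gene irg-1 was at 1.92 and 2.65, irg-2 at 0.51 and 1.00, irg-3 at -1.30 and -0.26 and irg-7 at -0.83 and -1.69. Of 3 further dod genes, 0 passed in limma (2 at an unadjusted p under 0.05). The log2 ratios of dod-6, of the class that is higher when daf-16 is active, were 1.35 and 1.32 (limma adjusted p = 0.171), while dod-18, of the other class, was at -0.67 and -0.87.

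Among the regulators upstream, 12 genes were measured of a list drawn up around the p38 MAP kinase immune pathway. The list reaches beyond the pathway genes named above, with kgb-1 and dkf-2 among the additions. In limma 0 of the 12 passed (2 at an unadjusted p under 0.05, both lower), and their median log2 ratio was -0.64, with 0.09 in preparation 1 and -1.49 in preparation 2. The kinase genes nsy-1 (-1.34 and -1.91), sek-1 (-0.01 and -1.24), pmk-1 (-1.54 and -1.63) and dkf-2 (-0.35 and -2.86) and the transcription factor gene atf-7 (0.40 and -1.21) were all below 0 in preparation 2. The same held for tir-1 (1.10 and -1.35), while kgb-1 (0.54 and 0.55) was the 1 gene of the list above 0 on both arrays. Of 17 genes of the pathway from insulin-like signalling to daf-16, 0 passed in limma (4 at an unadjusted p under 0.05), and the median was -0.54. The log2 ratios of daf-16 itself were -0.09 and -2.50 (limma adjusted p = 0.338), those of the receptor gene daf-2 were 0.82 and 1.20 (limma adjusted p = 0.262), and those of the lipid phosphatase gene daf-18 were -2.22 and -3.11 (limma adjusted p = 0.0550, past the threshold with each array centred and after quantile normalization). The kinase gene akt-1 was at -1.11 and -3.37 (limma adjusted p = 0.157). Of 17 intestinal and immune transcription factor genes, 0 passed in limma (3 at an unadjusted p under 0.05, median -0.06). The largest in size were the nuclear receptor genes nhr-57 (-2.03 and -2.55, limma adjusted p = 0.0636, past the threshold with each array centred and after quantile normalization) and nhr-49 (-0.04 and -2.91, limma adjusted p = 0.336). The intestinal GATA factor gene elt-2 was at 0.74 and 0.43 (limma adjusted p = 0.457).

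Targets further downstream went in different directions. Of 26 measured intestinal infection effector genes, 12 had an unadjusted p under 0.05 (5 higher and 7 lower). In this list, which also holds irg-5 and irg-6, 1 gene passed as higher, 2 as lower and 23 did not pass (median 0.22). The higher one was sysm-1, which encodes a ShK-like peptide used as a reporter of p38 activity, at 5.08 and 4.97 (mean 5.03 ± 0.08, limma adjusted p = 0.0208). The thaumatin-like genes thn-2 (-3.70 and -2.84, limma adjusted p = 0.0377) and thn-1 (-3.74 and -2.78, limma adjusted p = 0.0400) fell, and both calls were lost with log2 ratios limited to 5. Means of the effectors ran from -3.27 to 5.08, so this list, like the members, held genes far to both sides of 0.

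Of 19 genes that daf-16 activates, 9 had an unadjusted p under 0.05 (1 higher and 8 lower). After adjustment 4 fell, 0 rose and 15 did not pass (median -1.06). Among them were hsp-12.6 (mean -4.82 ± 0.03) and sip-1 (-4.61 ± 0.37), both of small heat shock proteins, and lea-1, related to plant desiccation proteins (-3.90 on both arrays), with limma adjusted p of 0.0208, 0.0229 and 0.0257. The remaining one was icl-1 of the glyoxylate cycle (-3.15 and -4.57, limma adjusted p = 0.0354), whose call was lost with log2 ratios limited to 5. Another small heat shock gene, hsp-16.1, was at 2.12 and 3.33 and did not pass (limma adjusted p = 0.0620), except with each array centred and after quantile normalization. The mean of dod-23 (-4.76) lay within those of these 4 genes and that of dod-3 (-3.49) above them, though it is dod-3 that belongs to the class higher with active daf-16. Of 12 antimicrobial-type peptide genes of the epidermis, 4 had an unadjusted p under 0.05, all lower. After adjustment cnc-2 (-3.86 and -2.68) and cnc-1 (-2.63 and -2.71) fell (limma adjusted p = 0.0424 and 0.0452) and 10 did not pass. Both calls were lost with log2 ratios limited to 5, and the list's median of -0.12 was -0.77 in preparation 1 and 0.18 in preparation 2.

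RNA of whole worms cannot show whether cells of a type were fewer or held less RNA each. Of 17 intestine markers, 1 passed as higher, the peptide transporter gene pept-1 at 2.99 and 2.52 (limma adjusted p = 0.0452), and 16 did not pass. At an unadjusted p under 0.05 stood 7 of these markers, 4 higher and 3 lower. Their median log2 ratio was 0.17, with 0.74 in preparation 1 and 0.20 in preparation 2, and means ran from -1.74 to 2.76. The means of the 5 high members were above that of pept-1, the highest of these markers, but in preparation 2 dod-19 (2.20) was below pept-1. Of the 17 intestine markers, 8 were above 0 on both arrays and 5 below 0 on both. The signs of the rest differed between the arrays, as for vha-6 (1.83 and -2.16) and ifb-2 (1.66 and -1.80). The medians of 4 other tissues also had different signs or sizes on the arrays. Hypodermis markers had a median of 0.52 in preparation 1 and -0.38 in preparation 2, with rol-6 at 2.34 and -0.02 and lin-26 at -0.02 and -1.79. Neuron markers had medians of 0.48 and -0.60, with egl-21 at 0.20 and -3.05 and egl-3 at 0.19 and -2.95. Of the 10 hypodermis and 9 neuron markers, 0 passed in limma and 0 had an unadjusted p under 0.05. Medians were 1.06 and 0.41 for 9 body wall muscle markers, of which ttn-1 rose (2.36 and 2.89, limma adjusted p = 0.0492). They were 0.82 and -0.10 for 9 pharynx markers, of which phat-4 rose (4.39 and 3.55, limma adjusted p = 0.0257). The median of the gene means was 0.54 for muscle and 1.03 for pharynx. At an unadjusted p under 0.05 stood 5 of the muscle markers (4 higher and 1 lower) and 4 of the pharynx markers, all higher. The calls of pept-1 and ttn-1 were lost with log2 ratios limited to 5. With trend and robust estimation no higher call was kept, that of phat-4 included. For 10 germ cell markers the medians were -3.06 and -2.94, and all 10 were lower at an unadjusted p under 0.05. After adjustment 7 fell, among them mex-5 (mean -5.05 ± 0.30), oma-1 (-3.90 ± 0.36) and him-3 (-3.18 ± 0.26), with limma adjusted p of 0.0208, 0.0257 and 0.0344. With ratios limited to 5, these 3 were the germ cell markers that passed. Germ cell markers thus differed between the channels along with the members, and their part in the members' ratios was not tested.

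**Figure D4:**
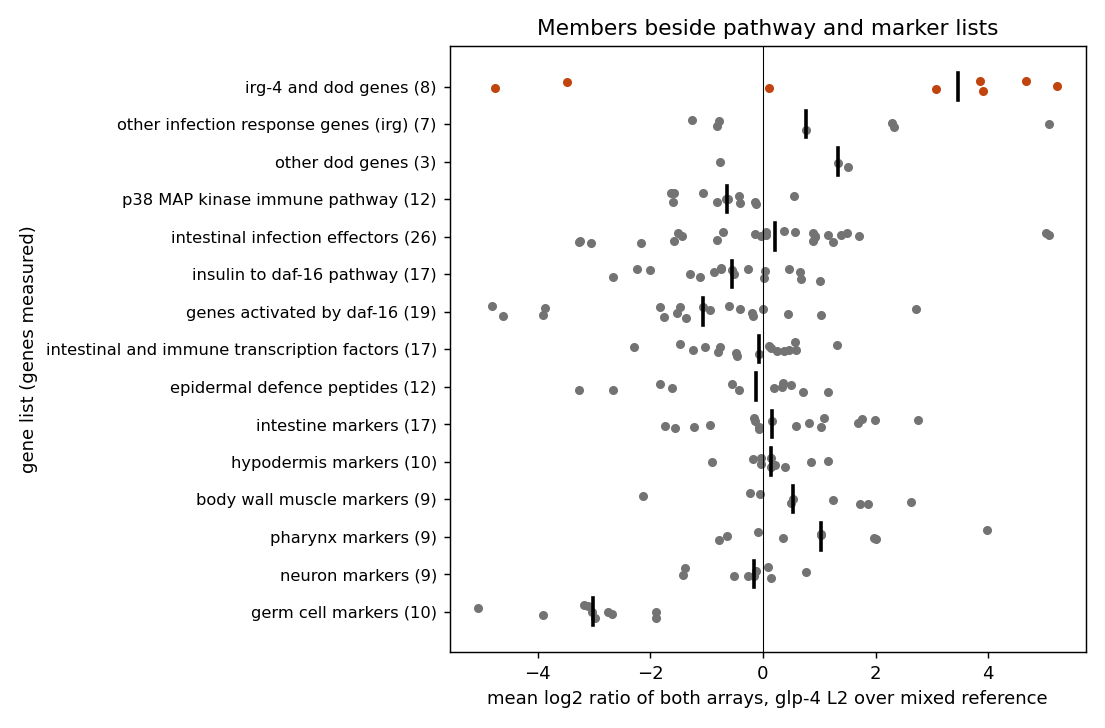
Mean log2 ratio of both arrays (x axis, likely glp-4 L2 over mixed reference) of the irg-4 and dod genes and of the genes of each pathway and marker list (y axis, number measured in parentheses), each point a gene and each bar the list's median. The irg-4 and dod genes have a median of 3.46 with points at both ends of the range, the intestine markers a median of 0.17 and the germ cell markers a median of -3.01.

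Likeness was measured as the Euclidean distance between log2 ratios over the 2 arrays, among genes with a gene name that are not members. Nearest to irg-4 were sysm-1 (distance 1.24), irg-5 (1.73), pud-4 (1.82), the P-glycoprotein transporter gene pgp-7 (1.84) and the pharyngeal gland gene phat-4 (1.89). None of these lay as close to irg-4, the gene with the highest mean, as the 5 nearest lay to the members' median point. Nearest to that point (3.90 and 2.67), members again left out, were the cuticlin gene cut-2 (0.10), the glucuronosyltransferase genes ugt-12 (0.13), ugt-48 (0.34) and ugt-63 (0.55), and phat-7 (0.28). Likeness over 2 arrays that share a reference is a description of position and of nothing further.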

How the data were processed

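The authors deposited 1 log2 ratio per probe and array, and no intensities, dyes, background correction or scaling are given in the sources used here. The log2 base was read from the deposited values: the antilog to base 2 fell on steps of 0.001 (tolerance 0.002 of one step) for 99.1% of the preparation 1 values and 98.8% in preparation 2. Of 21632 probes, GEO's platform annotation gave 1 gene to 16450, several to 247 and none to 4935, and RefSeq's WBcel235 gene table gave current symbols, matched on Entrez ID, to 16360. Probes of a gene were averaged per array. For the test of gene means against 0, limma 3.58.1 under R 4.3.3 (lmFit, eBayes) was run over 14777 genes with Benjamini-Hochberg adjustment at 0.05. The fit has 1 residual degree of freedom and a prior of 4.52. It was tested on simulated data drawn from its own variance model with normal errors. Such data cannot show whether that variance model holds for these arrays. The common reference is 1 RNA whose own variation does not enter the fit. Named from each list were up to 3 genes past the threshold with the largest mean in size, or the 2 largest where none passed, and further genes of the lists were chosen after their values were seen. Members and lists were chosen with earlier results of these data known. Promoter and protein sequences were not analysed here. Alternatives were centring, quantile normalization, a limit on ratios, other treatment of probes, another variance prior and 1 array at a time.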

Additional observations from a re-analysis of the deposited data

How the results depend on the processing

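The direction of the 7 members far from 0 was the same under every alternative run and on either array alone. The limit on ratios and another variance prior could not turn a sign. Nor could centring for these 7, since it subtracts array medians of 0.10 and 0.02. The members were chosen with their ratios known, so their constant direction is a description. These members have 1 probe each, so other treatment of probes could not move their ratios. With centring and quantile normalization, 14 of 16 recomputed member means moved by less than the SD between arrays. The exceptions were both of dod-17, whose SD was small, at 3.79 with each array centred and 3.91 after quantile normalization. Centring moves every gene mean by the same amount, so its part of this count reflects only the size of each SD. Calls depended on the processing. The 275 genes past the threshold (54 higher, 221 lower) became 467 (90 and 377) with each array centred, 605 (158 and 447) after quantile normalization, 140 (25 and 115) with log2 ratios limited to 5, and 136 (0 and 136) with trend and robust estimation. Without a test, 1677 genes (591 and 1086) lay 2-fold or more to one side of the reference on both arrays. Centring and quantile normalization added dod-19 to the members past the threshold, and the limit on ratios removed dod-24. Called genes over the pathway lists numbered 14 with centring, 17 after quantile normalization and 4 with the limit, against 9. The causes were not tested. No paired analysis was possible because there is 1 group. With 1 array no test could be run, so leaving out an array gave values only. Signal over background is unknown.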
